A study of Drosophila melanogaster and Drosophila virilis and Drosophila yakuba with 44 samples.

Results

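The comparison set whole *D. melanogaster* embryos of the 90′–6 h window against embryos of the 0–45′ window, with 1 3′-seq library each, and covered 7008 genes of the 13458 in the count table. A gene entered when it had at least 5 CPM in either library, where CPM is its reads per 1000000 reads counted on genes in that library. Both groups were laid on apple juice agar with yeast paste, and the sources used here give them no strain, transgene, mutation, or treatment. The ovary used below for reference came from Canton S flies of the same stated age as the flies that laid the eggs. The labels set the embryo groups apart by the time after egg laying. Each library holds many embryos of both sexes and, at 90′–6 h, of stages that run from before cellularization to after gastrulation. The labels do not say how many collections were combined. The study made the embryo time course to map the ends of polyadenylated transcripts, and the same counts give the level of each gene.

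Drosophila eggs are laid with a store of RNA and protein made by the nurse cells of the ovary, and the first nuclear divisions run on this store with little transcription. After egg activation, RNA-binding proteins such as Smaug and the deadenylation machinery remove many maternal RNAs, while pioneer factors such as Zelda open the chromatin of the first zygotic genes. The syncytial nuclei are then enclosed by membranes, the germ layers are set along the dorsoventral axis, and the segments along the anteroposterior axis. In 3′-seq, oligo-dT primers capture the junction of transcript and poly(A) tail, and each read comes from such a junction. A change in the amount of an RNA and a change in how well its tail is captured cannot be told apart here, nor can fewer cells of a type and less RNA per cell.

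The 90′–6 h library held 2426014 counted reads and the 0–45′ library 5299412, and at least 1 read was counted for 6895 genes at 90′–6 h and 8360 at 0–45′. With 1 library per window there is no replicate check, and every difference is between these libraries. Genes with few reads were spread unlike those of most other libraries. At 90′–6 h, 93 genes had 4 to 6 reads and 210 had 14 to 16, and at 0–45′ these counts were 166 and 170. The 3 later embryo windows and the ovary instead had 375 to 581 genes at 4 to 6 reads and 164 to 318 at 14 to 16. Among adult samples, female whole flies and female carcass had the same shape as the 90′–6 h library. Between 5 and 40 reads, the 3 neighboring counts with the most genes were centered on 16 reads at 90′–6 h (6.60 CPM) and on 15 reads at 0–45′ (2.83 CPM), where the maximum was slight. The origin of this shape was not tested. The 95% intervals of fold changes given here are exact (Clopper-Pearson), count 16 or 15 reads as 1 event, and cover counting error only. Where a gene had no read in one library, a fold is given as a lower bound against 3 such events (48 reads, 19.8 CPM, at 90′–6 h and 45 reads, 8.49 CPM, at 0–45′). This bound takes the value of the other library as exact and does not cover its counting error.

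**Figure D1:**
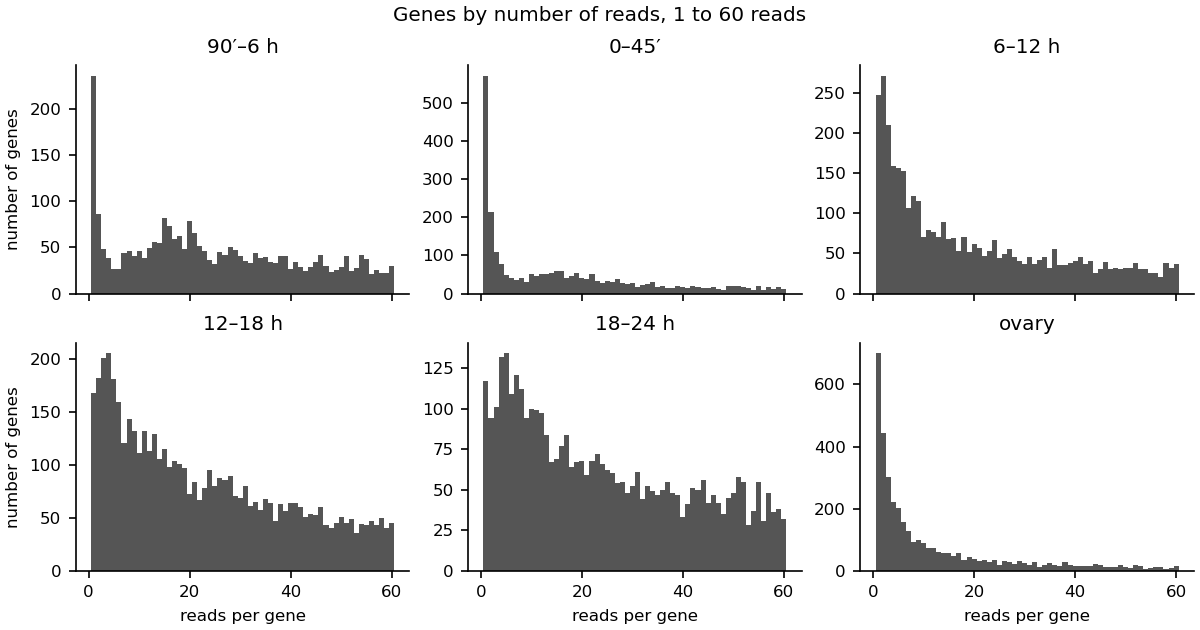
Number of genes (y axis) with 1 to 60 reads (x axis) in the 90′–6 h and 0–45′ embryos, 3 later embryo windows, and ovary. The 90′–6 h library has a dip at 4 to 6 reads (93 genes) and a second maximum near 16 reads, which the later windows lack.

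Markers bear on what the libraries hold. The eggshell and vitelline membrane genes of follicle cells, which surround the egg in the ovary but are not part of it, summed to 12.4 CPM at 90′–6 h and 24.2 CPM at 0–45′, against 68466 CPM in ovary. The 3 yolk protein genes summed to 1.24 CPM at 90′–6 h and had no read at 0–45′. The 0–45′ library did, however, hold RNAs that were far more abundant in later embryos. Osi6, of the Osiris family that is active in the tracheal system, had 4.12 CPM at 90′–6 h and 125 CPM at 0–45′, none in ovary, and 8962 CPM at 12–18 h. TwdlM, a Tweedle cuticle protein, was at 0 at 90′–6 h and at 53.4 CPM at 0–45′, against 5644 CPM at 12–18 h. The 13 tracheal and cuticle genes listed summed to 47.0 CPM at 90′–6 h and 363 CPM at 0–45′, against 2.55 CPM in ovary and 23831 CPM at 12–18 h. Of the 11 tested, 7 were called lower by the rule given below (17.4% of all genes were). The 5 accessory gland genes, which encode seminal fluid proteins of males, were all at 0 at 90′–6 h and summed to 34.2 CPM at 0–45′. The source of these reads, and how much of the 0–45′ library they make up, was not tested.

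Genes were called where log2(CPM + 1) differed by 2 or more, which is 4-fold and understates the change of genes with few reads. Of the 7008 genes, 678 (9.67%) were at least 4-fold higher at 90′–6 h and 1222 (17.4%) at least 4-fold lower, and 5108 were neither. The median difference was −0.38 on the log2 scale, and 3458 genes lay within 2-fold. Called genes carried a modest part of the RNA. The higher genes took 9.30% of the reads at 90′–6 h and 1.26% at 0–45′, and the lower genes 1.35% at 90′–6 h and 13.6% at 0–45′. Many calls rest on genes without a read, since 510 of the lower genes had no read at 90′–6 h and 208 of the higher genes none at 0–45′. With a pseudocount of 19.8 CPM in place of 1, which sets aside genes with few reads, 133 genes were higher and 242 lower.

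**Figure D2:**
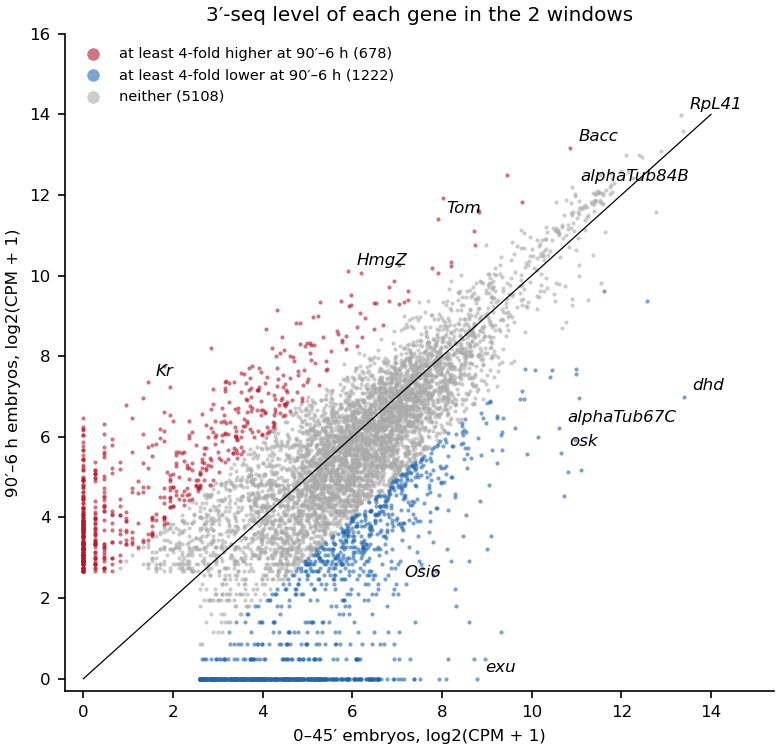
Level of the 7008 genes at 0–45′ (x axis) and 90′–6 h (y axis), both as log2(CPM + 1), with genes at least 4-fold higher at 90′–6 h in red, at least 4-fold lower in blue, and the others in grey. The line marks equal levels. The 510 genes on the lowest row of blue points had no read at 90′–6 h.

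On the log2(CPM + 1) scale, the genes with the greatest excess at 90′–6 h, among the 2541 with 100 CPM or more in either library, were led by four-jointed (fj), which encodes a kinase of the Golgi that acts in planar polarity. It had 216 CPM at 90′–6 h and 2.45 CPM at 0–45′. Next stood the gap gene Krüppel (Kr), a zinc finger repressor of the central embryo, with 162 CPM at 90′–6 h and 1.70 CPM at 0–45′. DNaseII, a lysosomal nuclease, had 109 CPM at 90′–6 h and 0.944 CPM at 0–45′. Notum, a secreted inhibitor of Wnt signaling, had 150.5 CPM at 90′–6 h against 2.83 CPM at 0–45′. The netrin receptor unc-5 had 144 CPM at 90′–6 h against 6.42 CPM at 0–45′, and ASPP, a regulator of Src signaling, 166 CPM at 90′–6 h and 8.11 CPM at 0–45′. VepD, CG42394, Ocho, E(spl)malpha-BFM, E(spl)mgamma-HLH, and HmgZ complete the 12 genes, whose log2 differences ran from 4.19 to 5.98. Of these 12 genes, 9 had less than 5 CPM in ovary.

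Chromosomal HMG-box proteins bind and bend DNA, and HmgZ was the most abundant of the 12 genes. It had 1102 CPM at 90′–6 h and 58.9 CPM at 0–45′, an 18.7-fold excess (95% interval 11.8 to 31.1). Its paralog HmgD, which overlaps it on the opposite strand, had 3622 CPM at 90′–6 h and 1498 CPM at 0–45′. The embryonic linker histone BigH1 ran the other way, with 90.3 CPM at 90′–6 h and 595 CPM at 0–45′. Of the 10 histone variants and HMG proteins listed, HmgZ was called higher and BigH1 lower (9.67% and 17.4% of all genes were). The others included the H2A variant His2Av (3446 CPM at 90′–6 h and 2345 CPM at 0–45′), His3.3A (2231 CPM at 90′–6 h and 870.1 CPM at 0–45′), and the centromeric histone cid (44.1 CPM at 90′–6 h and 129.6 CPM at 0–45′).

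The small Bearded proteins and the basic helix-loop-helix repressors of the Enhancer of split complex are transcriptional targets of Notch signaling, and some Bearded genes are expressed in the early ectoderm. All 14 tested members of the 15 listed were called higher (9.67% of all genes were). Their median log2 difference was 4.03, against −0.38 for all genes. Tom was the most abundant, with 2718 CPM at 90′–6 h and 239 CPM at 0–45′ (11.3-fold, 95% interval 8.96 to 14.5). Brd had 1069 CPM at 90′–6 h and 72.1 CPM at 0–45′. Ocho had 411 CPM at 90′–6 h and 15.9 CPM at 0–45′. These 3 genes lie close together on chromosome 3L (dm6), with Ocho at 14974848–14976040, Tom at 14969344–14970306, and Brd at 14972667–14973198, and each has a single exon. In the Enhancer of split complex on chromosome 3R, E(spl)malpha-BFM (26010893–26011568) had 562 CPM at 90′–6 h and 19.1 CPM at 0–45′. E(spl)m5-HLH had 509 CPM at 90′–6 h and 36.4 CPM at 0–45′. E(spl)m7-HLH had 449 CPM at 90′–6 h and 25.9 CPM at 0–45′. E(spl)m8-HLH had 148 CPM at 90′–6 h and 7.93 CPM at 0–45′. In contrast, E(spl)m6-BFM was at 0 at 90′–6 h and at 1.89 CPM at 0–45′ and was not tested. As a group, the family summed to 6816 CPM at 90′–6 h and 486 CPM at 0–45′, against 17.7 CPM in ovary, 4038 CPM at 6–12 h, and 208 CPM at 12–18 h.

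Segmentation genes divide the embryo first into broad domains (gap genes), then into stripes (pair-rule genes), and then into compartments (segment polarity genes), while Hox genes give segments their identity. Of the 12 gap and head gap genes tested, 5 were called higher (9.67% of all genes were) and none lower. Knirps (kni) had 94.8 CPM at 90′–6 h and 20.002 CPM at 0–45′, giant (gt) 25.6 CPM at 90′–6 h and 2.45 CPM at 0–45′, and buttonhead (btd) 81.6 CPM at 90′–6 h and 8.68 CPM at 0–45′. Hunchback (hb), whose RNA is also supplied by the mother, had 127 CPM at 90′–6 h and 216 CPM at 0–45′. Of the 9 pair-rule genes tested, 5 were called higher. The sloppy paired genes slp2 (191 CPM at 90′–6 h and 10.4 CPM at 0–45′) and slp1 (155 CPM at 90′–6 h and 28.7 CPM at 0–45′) showed the greatest differences of this list. Even-skipped (eve) had 74.6 CPM at 90′–6 h and 16.2 CPM at 0–45′, and runt (run) 79.97 CPM at 90′–6 h and 17.9 CPM at 0–45′. The pair-rule genes had a median log2 difference of 2.10, close to the threshold of 2, and odd, opa, h, and ftz fell short of it with values from 1.33 to 1.97.

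Among the 13 segment polarity and Hox genes tested, 10 were called higher (9.67% of all genes were). Gooseberry (gsb) had 86.97 CPM at 90′–6 h and 1.13 CPM at 0–45′, and patched (ptc), the Hedgehog receptor, 93.98 CPM at 90′–6 h and 5.28 CPM at 0–45′. Engrailed (en) had 38.3 CPM at 90′–6 h and no read at 0–45′, at least 4.51-fold higher. The Hox gene Sex combs reduced (Scr) had 57.7 CPM at 90′–6 h and no read at 0–45′, at least 6.80-fold higher. Abdominal-A (abd-A) had 39.6 CPM at 90′–6 h against 1.51 CPM at 0–45′, and 153 CPM at 6–12 h. Ultrabithorax (Ubx) had 52.3 CPM at 90′–6 h and 10.4 CPM at 0–45′. The group summed to 589.9 CPM at 90′–6 h and 60.6 CPM at 0–45′, and to 1031 CPM at 6–12 h.

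On the dorsal side, 13 of the 14 tested genes of the dorsal ectoderm and amnioserosa were called higher (9.67% of all genes were). They include the BMP ligand dpp (65.5 CPM at 90′–6 h and 4.15 CPM at 0–45′), tolloid (tld), a protease that cleaves the BMP inhibitor Sog (51.5 CPM at 90′–6 h and 5.66 CPM at 0–45′), and the T-box gene Doc1 (163 CPM at 90′–6 h and 9.25 CPM at 0–45′). Ance, a peptidase of the amnioserosa, had 207 CPM at 90′–6 h and 14.2 CPM at 0–45′. On the ventral side, 11 of 17 tested genes of the mesoderm and ventral ectoderm were called higher. The mesoderm factor twist (twi) had 278 CPM at 90′–6 h and 44.7 CPM at 0–45′, and snail (sna) 86.1 CPM at 90′–6 h and 10.9 CPM at 0–45′. The BMP inhibitor sog had 638 CPM at 90′–6 h and 91.1 CPM at 0–45′, a 7.001-fold excess (95% interval 4.66 to 10.8). Mef2, which activates muscle genes, had 77.5 CPM at 90′–6 h, 80.01 CPM at 0–45′, and 356 CPM at 6–12 h. The fibroblast growth factor receptor htl was at 0 at 90′–6 h, although its adaptor stumps had 68.4 CPM there and 12.6 CPM at 0–45′.

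Early neural genes came out in the same direction, with 11 of 14 called higher (9.67% of all genes were) and none lower. Lethal of scute, l(1)sc, the most abundant proneural gene, had 315 CPM at 90′–6 h and 27.4 CPM at 0–45′. Prospero (pros) had 177 CPM at 90′–6 h and 16.04 CPM at 0–45′, and the neuronal RNA-binding protein gene elav 143 CPM at 90′–6 h and 13.96 CPM at 0–45′. For elav, the level at 6–12 h was 794 CPM. The Notch ligand Delta (Dl), with 1033 CPM at 90′–6 h and 344 CPM at 0–45′, stayed under 4-fold.

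Cellularization depends on early zygotic genes such as bottleneck and nullo, which act at the base of the growing furrows. Of 10 genes tested, which include genes with other roles, 4 were called higher (9.67% of all genes were). They were bottleneck (bnk, 251 CPM at 90′–6 h and 24.5 CPM at 0–45′), nullo (102 CPM at 90′–6 h and 6.23 CPM at 0–45′), halo, a regulator of lipid droplet transport (422 CPM at 90′–6 h and 68.3 CPM at 0–45′), and spi, an EGF receptor ligand (659 CPM at 90′–6 h and 112 CPM at 0–45′). Each of bnk, nullo, and halo had at most 0.127 CPM in ovary and at most 1.32 CPM at 6–12 h. Slow as molasses (slam) had 285 CPM at 90′–6 h and 94.4 CPM at 0–45′. Among the genes listed for X chromosome counting and the steps that follow it, 5 of 11 were called higher. They include sisA (41.6 CPM at 90′–6 h and 7.36 CPM at 0–45′) and the dosage compensation gene msl-2 (68.4 CPM at 90′–6 h and 4.34 CPM at 0–45′). The switch gene Sxl had 930.3 CPM at 90′–6 h and 293 CPM at 0–45′.

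Over these lists and that of early blood, fat body, and endoderm genes, which together hold 129 genes, 118 were tested, 80 were called higher (67.8%, against 9.67% of all genes) and none lower. Their median log2 difference was 2.60. Of the tested genes, 36 passed the filter only through 90′–6 h, so that a positive difference was set by the filter for them. With the pseudocount of 19.8 CPM, 27 were higher and none lower.

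**Figure D3:**
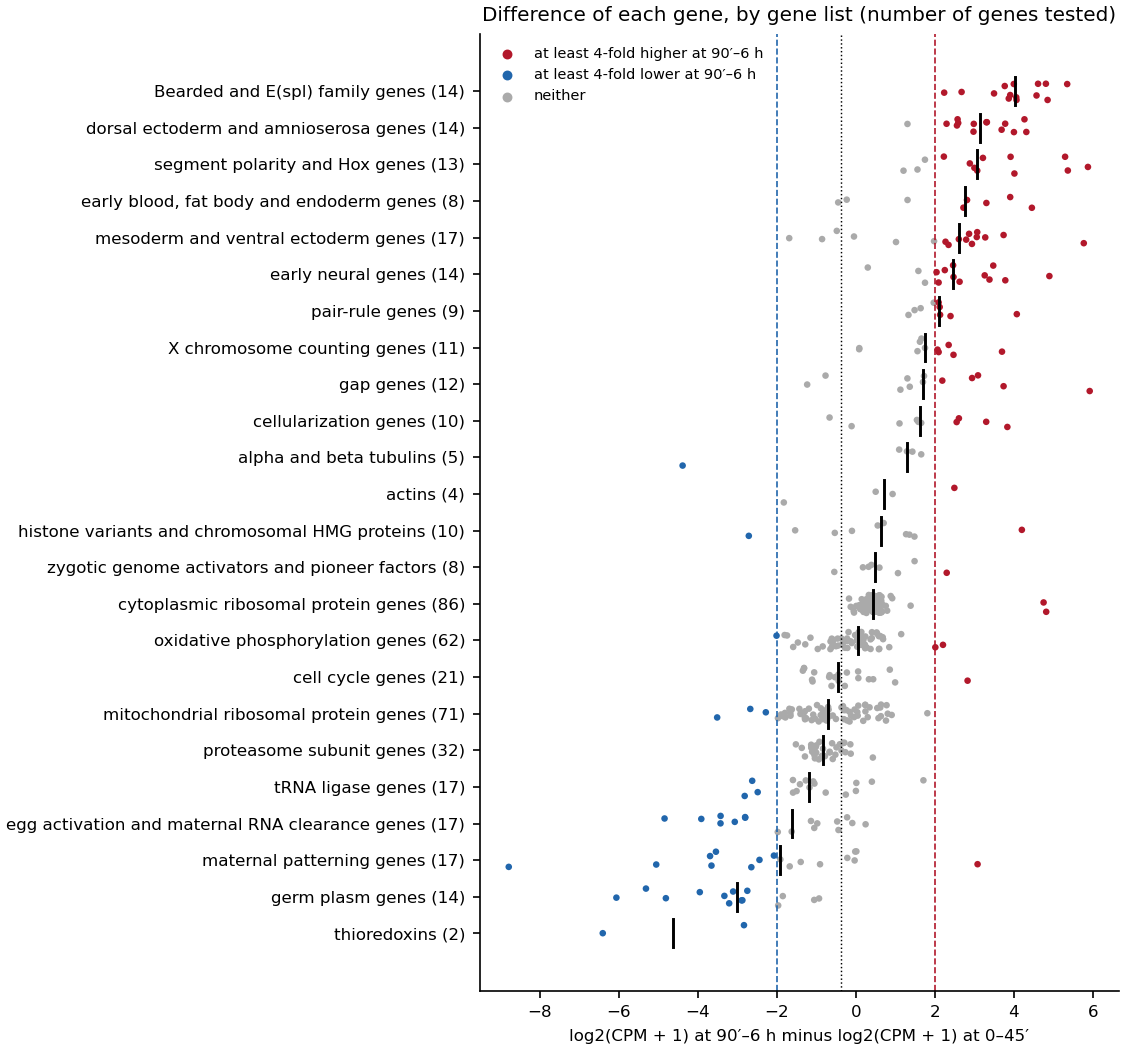
Difference in log2(CPM + 1), 90′–6 h minus 0–45′, of each tested gene (points) in 24 gene lists and families, with the number of genes tested in brackets and the median as a black bar. Dashed lines mark 4-fold, and the dotted line marks the median of all 7008 genes (−0.38). The Bearded and E(spl) family lies at the top (median 4.03) and the thioredoxins at the bottom (median −4.62).

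Regulators of zygotic activation were less changed. The pioneer factor Zelda (zld) had 904 CPM at 90′–6 h and 431 CPM at 0–45′, Clamp 238 CPM at 90′–6 h and 181 CPM at 0–45′, and odd-paired (opa) 178 CPM at 90′–6 h and 62.8 CPM at 0–45′. Of 8 genes tested, only grainy head (grh) was called, as higher (9.67% of all genes were). It had 111 CPM at 90′–6 h and 21.7 CPM at 0–45′. Cell cycle genes, whose products drive the rapid early divisions, had a median log2 difference of −0.44, and 20 of 21 were neither higher nor lower. The mitotic cyclins CycA (1556 CPM at 90′–6 h and 1236 CPM at 0–45′) and CycB (1024 CPM at 90′–6 h and 2125 CPM at 0–45′) are examples. The Cdc25 phosphatases string (stg, 875 CPM at 90′–6 h and 1186 CPM at 0–45′) and twine (twe, 56.1 CPM at 90′–6 h and 122 CPM at 0–45′) were likewise within 4-fold. The exception was tribbles (trbl), an inhibitor of string, with 239 CPM at 90′–6 h and 32.8 CPM at 0–45′.

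Of 17 tested maternal RNAs of genes that set the body axes, 8 were called lower at 90′–6 h (17.4% of all genes were), 8 were neither, and 1 was higher. The posterior determinant oskar (osk) had 47.8 CPM at 90′–6 h and 1617 CPM at 0–45′, where it was 33.8-fold more abundant (95% interval 16.5 to 82.9). Nanos (nos), the posterior repressor of translation, had 50.3 CPM at 90′–6 h and 644 CPM at 0–45′. For swallow (swa), which acts in the localization of bicoid RNA, the values were 68.01 CPM at 90′–6 h and 373 CPM at 0–45′. Exuperantia (exu), of the same process, had no read at 90′–6 h and 439 CPM at 0–45′, at least 22.2-fold lower. Bicoid (bcd) itself, the anterior determinant, had 53.2 CPM at 90′–6 h and 141 CPM at 0–45′, and 4.49 CPM at 6–12 h. RNAs of the Toll pathway varied. Its ligand spz had 14.01 CPM at 90′–6 h and 174 CPM at 0–45′, whereas the receptor Tl had 345 CPM at 90′–6 h and 352 CPM at 0–45′. The 1 gene called higher, trunk (trk), had 9.07 CPM at 90′–6 h from 22 reads and 0.189 CPM at 0–45′.

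Germ plasm RNAs gather at the posterior pole and are taken up by the pole cells. Of 14 tested, 10 were called lower (17.4% of all genes were) and none higher, with a median log2 difference of −2.997. Polar granule component (pgc), which represses transcription in pole cells, had 45.8 CPM at 90′–6 h and 468 CPM at 0–45′. The translational regulator orb had 17.3 CPM at 90′–6 h and 282 CPM at 0–45′. Chaperone gene Hsp83, whose maternal RNA is cleared from the soma and protected at the pole, had 657 CPM at 90′–6 h and 6069 CPM at 0–45′ (9.23-fold lower, 95% interval 7.55 to 11.4). The piRNA factors piwi (11.95 CPM at 90′–6 h and 85.9 CPM at 0–45′), aub (none at 90′–6 h and 26.98 CPM at 0–45′), and spn-E (8.24 CPM at 90′–6 h and 78.5 CPM at 0–45′) were lower, and AGO3, with 270.4 CPM at 90′–6 h and 516 CPM at 0–45′, was not. Vasa (vas), a germline helicase, had no read at 90′–6 h and 38.7 CPM at 0–45′. Its span shares 82.8% with another gene on the same strand, so that its count is uncertain. At 90′–6 h, orb, piwi, aub, spn-E, and vas all lay under the 19.8 CPM of 3 events, so that the size of their differences is uncertain. For aub, the 26.98 CPM at 0–45′ is itself little above that bound.

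Of the genes of egg activation and maternal RNA clearance, 7 of 17 tested were called lower (17.4% of all genes were) and none higher. The PAN GU kinase subunits gnu (73.4 CPM at 90′–6 h and 796 CPM at 0–45′) and png (4.12 CPM at 90′–6 h and 146 CPM at 0–45′) were among them, and the third subunit, plu, had 91.9 CPM at 90′–6 h and 128 CPM at 0–45′. The cytoplasmic poly(A) polymerase wispy (wisp) had 122 CPM at 90′–6 h and 859 CPM at 0–45′. Bruno (bru1), which represses oskar translation in the ovary, had 187 CPM at 90′–6 h and 2018 CPM at 0–45′. Smaug (smg), which directs deadenylation of maternal RNAs, had 418 CPM at 90′–6 h and 1647 CPM at 0–45′, just inside the threshold at a log2 difference of −1.97. The repressor proteins me31B (617 CPM at 90′–6 h and 1902 CPM at 0–45′), tral (665 CPM at 90′–6 h and 1461 CPM at 0–45′), pum (215 CPM at 90′–6 h and 228 CPM at 0–45′), and brat (651 CPM at 90′–6 h and 548 CPM at 0–45′) were within 4-fold.

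The most abundant RNA at 0–45′ was deadhead (dhd), a thioredoxin of the female germline that acts on sperm chromatin at fertilization. It had 127 CPM at 90′–6 h and 10833 CPM at 0–45′, and was 85.3-fold lower at 90′–6 h (95% interval 54.7 to 141). In ovary it had 8779 CPM and at 6–12 h 10.03 CPM. The gene lies at 5312171–5313125 of the X chromosome (dm6) and has a single exon. Trx-2, the general thioredoxin, had 61.8 CPM at 90′–6 h and 446 CPM at 0–45′, but 710.2 CPM at 12–18 h. Tubulins split by isotype. The maternal alphaTub67C had 73.4 CPM at 90′–6 h and 1550.4 CPM at 0–45′ (21.1-fold lower, 95% interval 11.8 to 42.4). The general alphaTub84B had 4707 CPM at 90′–6 h and 1917 CPM at 0–45′ (2.46-fold higher, 95% interval 2.21 to 2.73), and betaTub56D 3747 CPM at 90′–6 h and 1749.6 CPM at 0–45′. Of the actins, cytoplasmic Act5C had 3633 CPM at 90′–6 h and 2562 CPM at 0–45′, and muscle Act87E, called higher, 119.5 CPM at 90′–6 h and 20.4 CPM at 0–45′.

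Over the lists of axis, germ plasm, egg activation, and thioredoxin genes together, 50 of 55 genes were tested. Of these, 27 were called lower (54%, against 17.4% of all genes) and 1 higher, and the median log2 difference was −2.54. Of the tested genes, 7 passed the filter only through 0–45′ and 1 only through 90′–6 h, so that the sign was set by the filter for them. With the pseudocount of 19.8 CPM, 19 were lower and none higher.

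**Figure D4:**
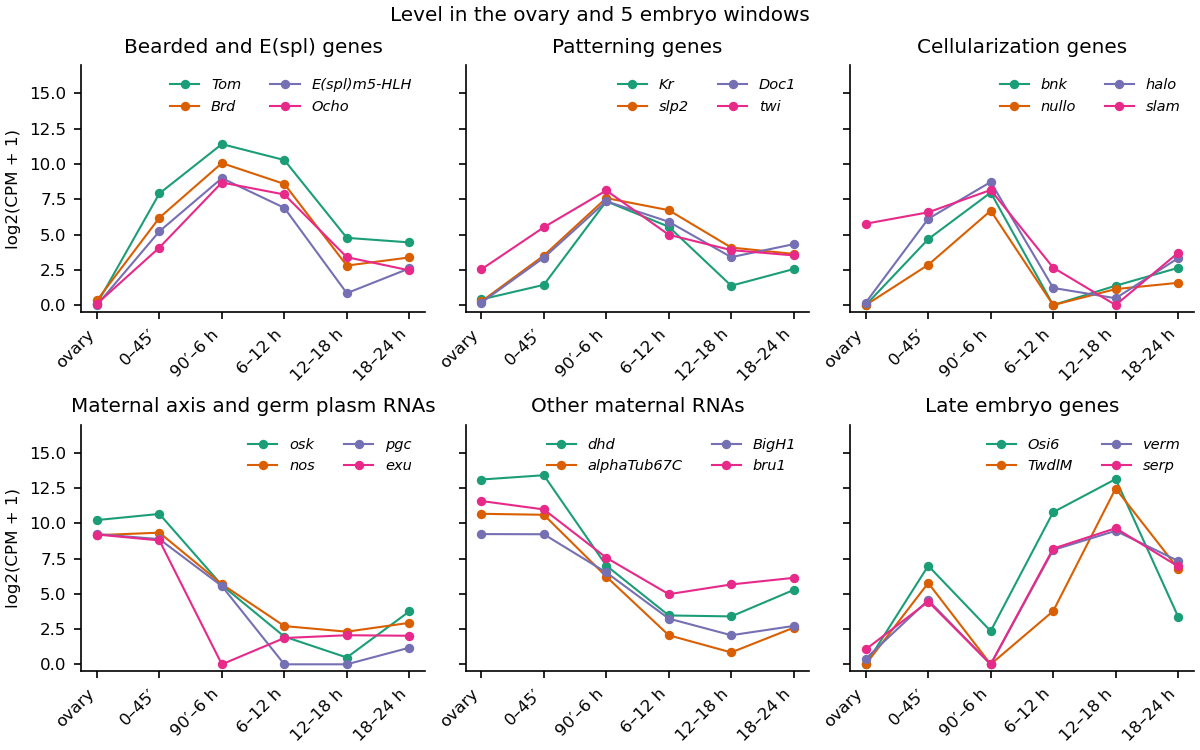
Level of 24 named genes, as log2(CPM + 1), in ovary and 5 embryo windows. Early zygotic genes (top row) reach their highest level at 90′–6 h, maternal RNAs (bottom left and middle) are high in ovary and at 0–45′, and late embryo genes (bottom right) have a level at 0–45′ but little or none in ovary. The 45′–90′ window is left out.

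On the log2(CPM + 1) scale, the genes with the greatest deficit at 90′–6 h included several enzymes besides exu. Got2, the mitochondrial aspartate aminotransferase, had 1.24 CPM at 90′–6 h and 636 CPM at 0–45′. The cytochrome P450 gene Cyp6a19 had 0.412 CPM at 90′–6 h and 494 CPM at 0–45′. Triose phosphate isomerase (Tpi) had 0.412 CPM at 90′–6 h and 421 CPM at 0–45′. The fatty acyl-CoA ligase gene Acsl had 0.412 CPM at 90′–6 h and 279 CPM at 0–45′, and Men-b, a malic enzyme, none at 90′–6 h and 141 CPM at 0–45′. Uch, a ubiquitin hydrolase, had none at 90′–6 h and 165 CPM at 0–45′. For the piRNA pathway gene tapas, of the Tudor family, the values were none at 90′–6 h and 182 CPM at 0–45′. CG8180, CG4991, CG7208, and CG7777 complete the 12 genes, which had 0 to 4 reads at 90′–6 h and 55.1 to 1063 CPM in ovary. Several were back in later windows, such as Got2 with 61.8 CPM at 6–12 h and 195 CPM at 12–18 h, and Tpi with 17.2 and 186 CPM. Among 4089 genes with at least 20 CPM both at 0–45′ and at 6–12 h, 56 had no read at 90′–6 h (1.37%), whereas no such gene had 0 reads at 6–12 h or 12–18 h between its neighboring windows. Absence of a gene at 90′–6 h is therefore given as a count of 0 in this library and not as a cleared RNA.

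Most genes of the housekeeping families were within 4-fold. Of all tested genes, 9.67% were called higher and 17.4% lower. The genes of cytoplasmic ribosomal proteins took 24.0% of the reads at 90′–6 h and 17.5% at 0–45′, and 82 of 86 tested had a difference above 0, with a median of 0.44 on the log2 scale. RpL41 had 16081 CPM at 90′–6 h and 10293 CPM at 0–45′, and RpS3 7919 CPM at 90′–6 h and 5661 CPM at 0–45′. In this family, 2 were called higher, the paralogs RpS19b (32.6 CPM at 90′–6 h and 0.189 CPM at 0–45′) and RpS10a (25.97 CPM at 90′–6 h and none at 0–45′). Mitochondrial ribosomal protein genes had a median of −0.70, with 3 of 71 lower. Proteasome subunit genes had a median of −0.84, with none of 32 called. The tRNA ligase genes had a median of −1.17, with 3 of 17 lower (MetRS, TrpRS, and ValRS), a share close to the 17.4% of all genes. Oxidative phosphorylation genes had a median of 0.06, with 2 of 62 higher and 1 lower, ATPsynC (783 CPM at 90′–6 h and 3147 CPM at 0–45′). These medians are to be read against −0.38 for all genes. TMM or DESeq2 scaling on these libraries moved that median by 0.29 and 0.32, which changed the sign of none of the family medians.

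Of the 10 most abundant genes of each library, 6 were shared. They were RpL41, Ef1alpha48D, DIP-alpha, RpLP2, RpS3, and RpS19a. Ef1alpha48D, the translation elongation factor, had 12345 CPM at 90′–6 h and 10678 CPM at 0–45′. Besides RpS23, those of 90′–6 h alone were Bacc (9252 CPM at 90′–6 h and 1864 CPM at 0–45′), the only one of the 10 called higher, Df31, a chromatin decondensation factor (8206 CPM at 90′–6 h and 4433 CPM at 0–45′), and Tctp (5959.6 CPM at 90′–6 h and 3507 CPM at 0–45′). Those of 0–45′ alone were dhd, Hsp83, RpL7, and awd, a nucleoside diphosphate kinase (3078 CPM at 90′–6 h and 6949 CPM at 0–45′). DIP-alpha had 8777 CPM at 90′–6 h and 7510.3 CPM at 0–45′. It encodes a neuronal surface protein and had 14938 CPM in ovary by 3′-seq but 2694 CPM by total RNA-seq, so that its count here is uncertain.

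The libraries that the calls did not use give the levels of the called genes elsewhere in the life cycle. In ovary, the genes higher at 90′–6 h had a median of 1.88 CPM and the genes lower a median of 32.0 CPM, against 44.1 CPM for all tested genes. Of the higher genes 33.5% had at least 5 CPM in ovary, of the lower genes 85.3%, and of all tested genes 87.6%. By total RNA-seq of ovary these shares were 35.4% of the higher, 85.1% of the lower, and 87.7% of all tested genes. At 6–12 h, the higher genes had a median of 30.6 CPM and the lower genes 13.7 CPM, against 38.02 CPM for all. By 12–18 h the medians were 18.1 CPM for the higher and 18.6 CPM for the lower genes. In the 10 cell lines, the median of the higher genes ran from 1.56 CPM in S2R+ to 12.7 CPM in gm2, that of the lower genes from 15.01 CPM in Dmd32 to 21.6 CPM in OSS, and that of all tested genes from 31.0 to 42.4 CPM. Both classes were chosen on their values at 90′–6 h and 0–45′, so that a later return of the lower genes and a maximum of the higher genes at 90′–6 h are in part set by the choice. The low ovary level of the higher genes is in part set by it too. They were chosen as low at 0–45′, where levels correlated with those of ovary (r of 0.87). At 6–12 h, 195 of the 1222 lower genes were at or above their 0–45′ level, a smaller share than the 2521 of all 7008 genes. Among the higher genes, 278 had their highest embryo level at 90′–6 h, 226 at 6–12 h, 72 at 12–18 h, and 102 at 18–24 h. Of all 7008 genes, 3055 had it at 0–45′, 1604 at 90′–6 h, 1121 at 6–12 h, 566 at 12–18 h, and 662 at 18–24 h. Across all 7008 genes, log2(CPM + 1) of the ovary correlated with that of 90′–6 h embryos with an r of 0.60, and with that of 0–45′ embryos with an r of 0.87. Genes are not independent replicates, and these values are a description.

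**Figure D5:**
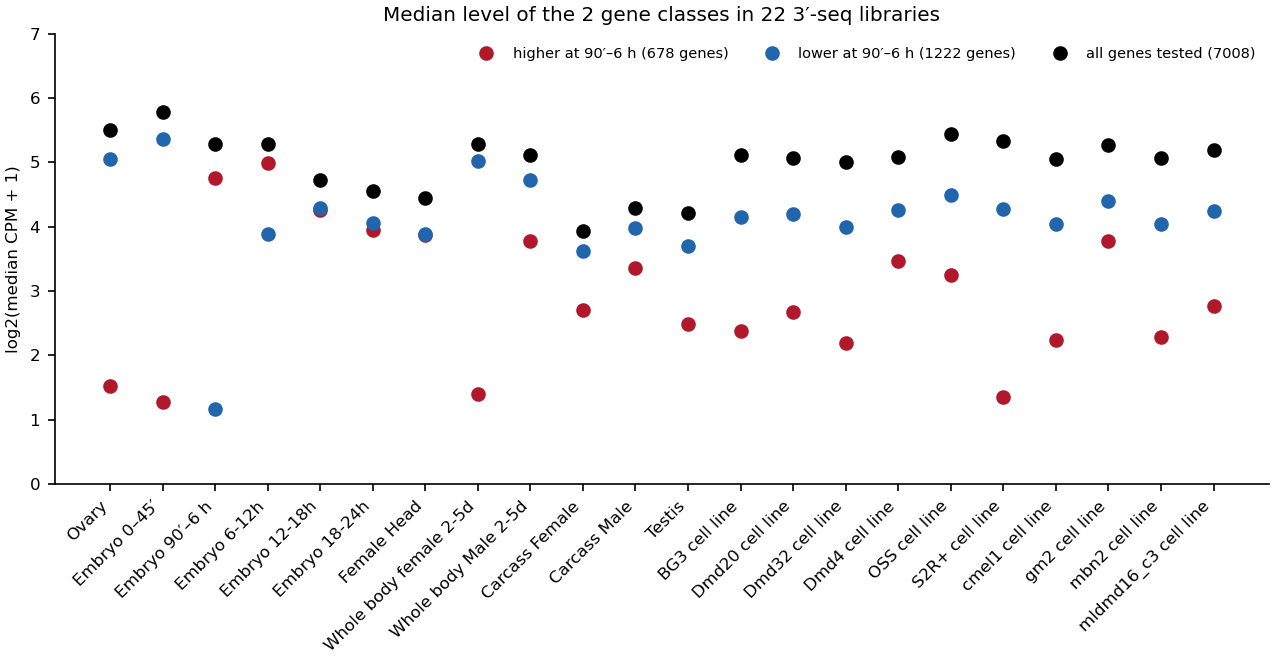
Median level, as log2(median CPM + 1), of the genes higher at 90′–6 h (red), lower at 90′–6 h (blue), and of all genes tested (black) in 22 3′-seq libraries. The 0–45′ and 90′–6 h libraries defined the classes. In ovary the red point lies at 1.88 CPM and the blue at 32.0 CPM.

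The ovary level divided both classes. Of the 678 higher genes, 258 (38.1%) had under 1 CPM in ovary, against 6.59% of all tested genes. They had medians of 14.2 CPM at 90′–6 h and 0.19 CPM at 0–45′, and 247 also had under 1 CPM in ovary RNA-seq. Another 227 higher genes had 5 CPM or more in ovary, with medians of 55.2 CPM at 90′–6 h and 6.23 CPM at 0–45′. Of the 258 genes, 141 had a read at 0–45′, at a median over all 258 of 1.43% of their 90′–6 h level, a share that the call itself limits. Among the 88 tested genes with under 1 CPM in ovary and 50 CPM or more at 90′–6 h, called or not, 86 had a read at 0–45′, at a median of 10.7% of their 90′–6 h level (quartiles 6.72% and 19.03%). Of the 1222 lower genes, 1042 (85.3%, against 87.6% of all tested genes) had at least 5 CPM in ovary, with medians of 3.71 CPM at 90′–6 h and 52.6 CPM at 0–45′. A further 122 (9.98%) had under 1 CPM in ovary. These had medians of 0 at 90′–6 h, 9.72 CPM at 0–45′, 3.43 CPM at 6–12 h, 268 CPM at 12–18 h, and 27.1 CPM at 18–24 h. The 462 tested genes with under 1 CPM in ovary had a median of 11.9 CPM at 12–18 h. Osi6, TwdlM, and verm are among the 122 lower genes.

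Gene structure, which the calls did not use, also differed between classes. Positions on dm6 were found for 99.4% of the tested genes. Genes higher at 90′–6 h had a median span of 4332 bp and genes lower 2616 bp, against 2894 bp for all tested genes. A single exon was found in 16.2% of the higher and 10.9% of the lower genes, against 9.55% of all. The higher genes again fell apart by ovary level. Of the 258 with under 1 CPM in ovary, 29.8% had a single exon and 3.10% spanned 20000 bp or more, whereas of those with 5 CPM or more in ovary 8.48% had a single exon and 29.5% spanned 20000 bp or more. Among the 75 higher genes with under 1 CPM in ovary and 50 CPM or more at 90′–6 h, 39 (52.0%) had a single exon, against 8.56% of the 4134 genes with a position and 50 CPM or more in either window. The latter were not limited by ovary level, and whether the share goes with the call or with the ovary level was not tested. The X chromosome held 12.9% of the higher and 18.7% of the lower genes, against 17.5% of all tested genes, and 2L held 20.03% of the higher and 15.1% of the lower genes, against 17.8% of all.

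The 45′–90′ library held 42379 reads and gave only a rough view of abundant genes. Of 34 higher genes with 500 CPM or more in either window, 32 were nearer to their 0–45′ than to their 90′–6 h level at 45′–90′, with medians of 131 CPM at 0–45′, 201 CPM at 45′–90′, and 886 CPM at 90′–6 h. All 38 lower genes of such abundance were nearer to their 0–45′ level, with medians of 895 CPM at 0–45′, 802 CPM at 45′–90′, and 83.5 CPM at 90′–6 h. Of the 314 genes of such abundance that were neither higher nor lower, 184 were nearer to 0–45′. The median read number at 45′–90′ was 8.5 for the higher, 34 for the lower, and 36 for the other genes. Tom, for example, had 13 reads at 45′–90′, and dhd 263.

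Some well-known genes could not be measured. No read was counted in any of the 23 *D. melanogaster* libraries for 981 genes, of which 775 have a span contained in that of a gene of the same orientation. Among the listed genes, cup, mtrm, ind, Sry-alpha, and tsg had no read in either window, and for the first 4 of them the whole span lies inside another gene. The GAGA factor gene Trl, for which 80.5% of the span is shared, was at 0 in both windows as well. Counts of genes that overlap on opposite strands are uncertain too, since the sources used here do not say whether strand was used in counting. Among the 12 highest genes these are Kr, unc-5, VepD, and HmgZ, and among the 12 lowest exu, Cyp6a19, Got2, Acsl, tapas, and CG7208.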

How the data were processed

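The embryo libraries are 3′-seq libraries of total RNA, and the authors deposited whole-number counts per gene, obtained with featureCounts on dm6 gene models that include their 3′ extensions. The submitters' processing notes name Trimmomatic 0.36 and HISAT2 without roles, and the aligner and counting options for 3′-seq are not given in the sources used here. CPM was calculated from the deposited counts and each library total, in Python 3.11.15 with pandas 2.3.3, numpy 2.4.6, scipy 1.17.1, and matplotlib 3.10.9. Differences of log2(CPM + 1) were called at 2, among genes with 5 CPM or more in either library. With 1 library per window nothing was tested, and a gene with no read is uncertain up to 3 events. TMM factors (edgeR 4.0.16) and size factors (DESeq2 1.42.0) served as alternatives, in R 4.3.3. The steps were checked on simulated data.

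Named genes are the 12 with the highest and the 12 with the lowest difference among genes of 100 CPM or more, the 10 most abundant of each library, and members of 31 gene lists, of which 1 gene was not matched. Members and lists were chosen with earlier results of these data known. Lists of eye and neuron, testis, and gut protease genes served as markers of other cells. They summed to 0, 14.0, and 6.60 CPM at 90′–6 h and to 14.7, 3.77, and 29.4 CPM at 0–45′. Promoter motifs were planned and not run, since no genome sequence was used here. Tables of other species were not used.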

Additional observations from a re-analysis of the deposited data

How the results depend on the processing

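Counts of called genes follow the settings, scaling among them. TMM scaling over the 23 libraries gave 637 genes higher and 1175 lower at 90′–6 h, and the other scalings gave 703 to 788 higher and 1001 to 1251 lower, against 678 and 1222 by library total. The median log2 difference of −0.38 was −0.10 with TMM over the 2 libraries and −0.065 with DESeq2 size factors. Higher genes made up 35.7% of the called genes by library total and 44.0% with DESeq2 size factors. A pseudocount of 5 CPM gave 337 higher and 752 lower, and a filter of 50 CPM gave 243 and 541. Thresholds of 2-fold gave 1200 and 2350, and of 8-fold 363 and 692. After the data were seen, a pseudocount of 19.8 CPM was added, which gave 133 higher, 242 lower, and a median of −0.26. Also added was a division by ovary level. Genes with 5 CPM or more in ovary gave 227 higher and 1042 lower, and genes under 5 CPM gave 451 higher and 180 lower with a median of 2.12, the sign reversed by the choice of genes. Of 1708 differences of 244 named genes under other scalings and pseudocounts, 1612 stayed within the counting error, 96 moved beyond it, and none of the called genes changed sign. Of 744 list counts, 641 stayed within 1.5 times the value given. No paired analysis was possible because each window has 1 library. A gene with no read at 90′–6 h is bounded at 1.24 CPM by 3 reads and at 19.8 CPM by 3 events of 16 reads.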

Other observations

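The RpS19b, RpS10a, and SdhBL genes, called higher at 90′–6 h, are paralogs with their highest 3′-seq level in testis. They were picked after their values were seen. RpS19b had 32.6 CPM at 90′–6 h and 0.189 CPM at 0–45′, against 465 CPM in testis. RpS10a had 25.97 CPM at 90′–6 h and none at 0–45′, against 78.3 CPM in testis. SdhBL, a relative of the iron-sulfur subunit of succinate dehydrogenase, had 5.36 CPM at 90′–6 h and 0.377 CPM at 0–45′, against 452 CPM in testis. The testis transcription factor gene can, a TAF paralog, had 14.01 CPM at 90′–6 h and none at 0–45′, against 13.5 CPM in testis, while the other 6 listed testis genes had no read at 90′–6 h. These levels rest on 13 to 79 reads at 90′–6 h. There, SdhBL and can lay under the 19.8 CPM of 3 events, and RpS10a was little above it. With no read at 0–45′, RpS10a and can are uncertain in that window up to 8.49 CPM. The size of these differences is therefore uncertain.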
